A study of Mus musculus with 9 samples.

Results

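H3K27me3, the trimethylated form of lysine 27 on histone H3, was compared between 2 mouse organoid cultures from the duodenum, one labelled as intestinal M cells (RANKL) and one as intestinal stem cells (WENRC). The members described here are all regions on chromosomes 1 to 19 in the authors' 2 deposited tables of differential H3K27me3 ChIP-seq peaks, 40400 of 49405 regions in all. Of these, 28339 stand in the table of regions higher in RANKL and 12061 in the table of regions higher in WENRC, and each table holds that direction by construction. RANKL is a pool of 2 libraries made by the authors (32.7 M tags), and WENRC is 1 library (36.3 M tags), whose tags the authors multiplied by 0.9 to match the RANKL depth. The differences in the mark therefore have no replicate check, and none is tested here. The X chromosome, which held 20.8% of the whole RANKL-higher table and 10.6% of the WENRC-higher one, was left out by the rule that chose the members.

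The measure set beside the mark is GRO-seq (global run-on sequencing), a count of nascent RNA from polymerases engaged on genes. It was done on 2 RANKL libraries, 2 WENRC libraries and 2 libraries of a further culture, ENRI, labelled as enterocytes. The labels give no genotype or age and do not spell out the culture names beyond those cell types, and the WENRC and ENRI GRO-seq libraries carry a mouse number while the RANKL libraries carry a replicate number. All cultures are bulk samples, so fewer cells of a type and less RNA or mark per cell cannot be told apart. The file headers name the RANKL GRO-seq reads as combined from a repeat sequencing, so that sequencing run and culture cannot be told apart either.

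H3K27me3 is written by Polycomb repressive complex PRC2 and is found over the promoters of silent developmental genes, often in broad domains over clusters of CpG-rich starts. M cells are antigen-sampling cells of the epithelium over gut lymphoid tissue. They differentiate from crypt progenitors on exposure to RANKL, a cytokine of the TNF family that acts through the receptor Tnfrsf11a and NF-kB, and the transcription factors Spib, Sox8 and Esrrg take part in that differentiation. Crypt stem cells are marked by the R-spondin receptor Lgr5 and depend on Wnt signalling.

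Promoter sequences are shown for 8 genes whose regions covered the start site, 4 from each table, chosen among the leading genes and the M cell and stem lists, to show the base composition at these starts. Each is the 250 bases before a RefSeq start (build GRCm38.p6), written 5′ to 3′ on the gene's strand, with every CG dinucleotide in capitals (the CG pair reads the same on both strands). The region coordinates are from the authors' mm9 tables and were not converted between builds. The first 4 starts lay in regions higher in RANKL, and most of the Olfm4 sequence lies upstream of its region. Sp9 (chr2:73271676-73271925, plus strand) encodes a zinc-finger factor of the Sp family. 2610016A17Rik (chr19:25672240-25672489, minus strand) is a non-coding transcript. Ephb2 (chr4:136836013-136836262, minus strand) encodes an Eph receptor that positions cells along the crypt. Olfm4 (chr14:80000052-80000301, plus strand) encodes a secreted glycoprotein used as a crypt stem cell marker.
Sp9: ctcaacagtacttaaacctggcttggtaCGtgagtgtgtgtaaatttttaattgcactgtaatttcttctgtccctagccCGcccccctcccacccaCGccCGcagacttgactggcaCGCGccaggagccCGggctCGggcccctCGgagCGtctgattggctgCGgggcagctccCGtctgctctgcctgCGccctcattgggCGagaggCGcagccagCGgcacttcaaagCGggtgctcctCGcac
2610016A17Rik: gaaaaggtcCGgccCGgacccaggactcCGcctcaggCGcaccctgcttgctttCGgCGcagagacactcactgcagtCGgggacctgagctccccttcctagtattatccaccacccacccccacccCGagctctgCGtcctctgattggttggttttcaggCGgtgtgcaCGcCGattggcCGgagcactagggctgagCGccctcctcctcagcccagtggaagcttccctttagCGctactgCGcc
Ephb2: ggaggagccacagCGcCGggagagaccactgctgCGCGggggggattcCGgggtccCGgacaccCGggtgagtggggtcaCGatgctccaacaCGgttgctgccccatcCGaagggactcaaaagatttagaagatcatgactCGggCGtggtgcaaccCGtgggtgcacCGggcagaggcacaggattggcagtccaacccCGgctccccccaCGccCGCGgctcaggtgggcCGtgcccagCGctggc
Olfm4: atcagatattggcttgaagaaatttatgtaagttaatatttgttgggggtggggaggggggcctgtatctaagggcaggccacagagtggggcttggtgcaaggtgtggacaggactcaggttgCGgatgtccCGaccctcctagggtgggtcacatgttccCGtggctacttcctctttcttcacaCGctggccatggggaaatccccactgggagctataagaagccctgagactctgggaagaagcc

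The other 4 starts lay in regions higher in WENRC, and most of the Mycn sequence lies upstream of its region. Slc6a20a (chr9:123678833-123679082, minus strand) encodes a proline transporter of the gut brush border. Sox8 (chr17:25570687-25570936, minus strand) encodes the M cell transcription factor. Mycn (chr12:12941837-12942086, minus strand) encodes a Myc family transcription factor. Gde1 (chr7:118705739-118705988, minus strand) encodes a glycerophosphodiester phosphodiesterase.
Slc6a20a: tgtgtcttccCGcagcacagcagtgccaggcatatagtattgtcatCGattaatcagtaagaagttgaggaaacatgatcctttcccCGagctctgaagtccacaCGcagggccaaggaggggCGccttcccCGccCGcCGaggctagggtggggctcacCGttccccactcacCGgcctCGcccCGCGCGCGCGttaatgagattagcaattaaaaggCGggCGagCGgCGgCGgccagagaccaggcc
Sox8: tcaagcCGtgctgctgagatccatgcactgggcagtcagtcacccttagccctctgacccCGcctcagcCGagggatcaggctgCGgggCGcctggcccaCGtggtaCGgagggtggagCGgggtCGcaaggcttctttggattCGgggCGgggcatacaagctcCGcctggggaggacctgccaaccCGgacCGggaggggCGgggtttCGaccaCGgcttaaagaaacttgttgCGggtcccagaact
Mycn: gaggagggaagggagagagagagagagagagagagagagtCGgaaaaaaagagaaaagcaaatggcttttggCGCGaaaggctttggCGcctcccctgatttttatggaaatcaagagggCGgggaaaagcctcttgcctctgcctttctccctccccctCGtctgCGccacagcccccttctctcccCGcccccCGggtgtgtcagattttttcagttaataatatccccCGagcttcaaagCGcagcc
Gde1: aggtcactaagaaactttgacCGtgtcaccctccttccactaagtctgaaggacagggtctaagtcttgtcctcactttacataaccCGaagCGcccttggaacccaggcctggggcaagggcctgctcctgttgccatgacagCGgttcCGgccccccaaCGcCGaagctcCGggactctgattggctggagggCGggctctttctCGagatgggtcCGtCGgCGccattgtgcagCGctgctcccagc

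Of these windows, 7 held between 11 and 21 CG pairs, and Olfm4 held 4. Over 31396 autosomal RefSeq promoter entries, the same 250-base window held a median of 6 CG pairs (quartiles 2 and 16), 92.4% held at least 1, 38.3% held at least 10 and 18.4% held at least 20. The promoters of both directions were thus mostly CG-rich, and the GC content of the 8 windows ran from 54% (Olfm4) to 68.4% (Ephb2) beside a median of 52.4% over all entries. These counts describe the letters of the windows shown and were not compared between the tables.

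Regions of H3K27me3 higher in WENRC lay at 7 of 22 genes of an M cell list within 5 kb of a start site (31.8%), beside 1237 of 23354 autosomal genes (5.3%). This list, like the others used here, was chosen with earlier results of these data known. Its shares, also in GRO-seq, are therefore descriptive and no independent support. The 7 were the transcription factors Sox8, Esrrg and Atoh8, the bacterial uptake receptor Gp2, the adhesion molecule Icam1, the TNF-induced gene Tnfaip2 and the chemokine Ccl9. All 7 rose in RANKL GRO-seq (limma, Benjamini-Hochberg adjusted p under 0.05), as did 17 of the 22 listed genes and 8.6% of all autosomal genes tested. The M cell list had a summed GRO-seq level of 15.13 and 15.22 (log2) in the RANKL libraries against 12.18 and 12.27 in WENRC. This sum leans on its most transcribed genes, and Esrrg alone stood at 14.02 and 14.12 against 9.48 and 10.05. Every GRO-seq call here needs both RANKL libraries: with library 1 or 2 left out, limma called no gene of the whole table, and 10.7% and 9.56% of all genes were higher at an unadjusted p under 0.05.

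At Sox8, the region over the start site (chr17:25705304-25709968, mm9) held 304.3 tags in WENRC and 103 in RANKL. A second WENRC-higher region lay over the 3′ end of this short gene (73.8 against 29 tags). GRO-seq gave Sox8 values of 6.94 and 6.97 in RANKL against 2.56 and 3.23 in WENRC and 2.57 and 2.83 in ENRI (log2). The RANKL libraries lay above both other cultures without overlap, and the difference from WENRC was 4.06 ± 0.26 (log2 change ± SE, adjusted p = 0.0017). Farther from the start the direction was the opposite, and 3 RANKL-higher regions centred 10497 to 16073 bp from it held 44 to 78 tags in RANKL and 14.4 to 31.5 in WENRC.

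Esrrg, an orphan nuclear receptor gene, carried 5 WENRC-higher regions at 3 annotated starts along chromosome 1, with 219.6 tags in WENRC and 62 in RANKL in total. The longest (chr1:189432344-189435399) lay over the most upstream start and held 126 tags against 36, and no RANKL-higher region was linked to Esrrg. Its GRO-seq values were 14.02 and 14.12 in RANKL against 9.48 and 10.05 in WENRC and 6.80 and 8.82 in ENRI. RANKL exceeded WENRC by 4.31 ± 0.62 (adjusted p = 0.012), and the gene was already transcribed in WENRC at a level above the median of all autosomal genes tested, 7.77.

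Atoh8, a basic helix-loop-helix factor, had 3 WENRC-higher regions from 957 to 4225 bp inside the gene, with 131.4 tags against 43. A further WENRC-higher region lay 6068 bp from the start, while 4 of the 5 RANKL-higher regions linked to Atoh8 lay farther upstream, the nearest at -24509 bp. In GRO-seq it stood at 7.04 and 6.71 in RANKL and 5.40 and 5.62 in WENRC, a rise of 1.37 ± 0.26 (adjusted p = 0.025). Among the M cell transcription factors with the mark, Atoh8 thus had the smallest change in nascent RNA.

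At the remaining 4 M cell genes the regions were short and shallow. Gp2 had 1 region of 500 bp upstream, centred at -3479 bp from the start (21.6 tags in WENRC, 4 in RANKL). In GRO-seq Gp2 stood at 8.56 and 8.65 in RANKL against 2.66 and 3.29 in WENRC and 2.56 and 3.72 in ENRI, a rise of 5.62 ± 0.42 (adjusted p = 0.0021). Icam1 had 18 tags in WENRC against 4, and Ccl9 had 25.2 against 8. Tnfaip2 carried 1 region of each direction next to each other in an intron, with 21.6 tags in WENRC against 7 at one and 24 in RANKL against 8.1 at the other. Their GRO-seq rises were 3.60 ± 0.39 (Icam1), 3.43 ± 0.26 (Ccl9) and 4.68 ± 0.21 (Tnfaip2), so that size of the tag difference and size of the GRO-seq change did not go together among these genes.

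For 15 of the 22 M cell genes no WENRC-higher region lay within 5 kb, and 10 of them rose in GRO-seq as well. Spib, the Ets factor required for M cell maturation, had no region of either direction at any distance, and rose by 4.02 ± 0.21 (adjusted p = 0.0014). The same was true of Tnfrsf11a, the RANKL receptor (rise of 2.15 ± 0.15), of the chemokine Ccl20 (3.22 ± 0.18), of the NF-kB subunit Relb (2.52 ± 0.16) and of the MHC-like gene H2-M2 (6.93 ± 0.31). Differential H3K27me3 was therefore recorded at a minority of the M cell genes that rose.

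The WENRC-higher regions with the most tags lay at a small group of genes that were mostly transcribed more in RANKL. Of the 10 genes with the largest summed difference in tags, 7 rose in GRO-seq, and the other 3 were Mycn, Sphk1 and Gde1. Slc6a20a led the group, with 375.4 tags in WENRC against 42 in RANKL over a region of 5897 bp that covered the start (chr9:123583784-123589681, mm9). Its GRO-seq values were 12.30 and 12.38 in RANKL against 6.42 and 6.73 in WENRC and 11.44 and 12.84 in ENRI. RANKL exceeded WENRC by 5.76 ± 0.43 (adjusted p = 0.0022), and both enterocyte libraries lay near the RANKL level. Its neighbour Slc6a20b had 161.1 tags in WENRC against 49 over 3 regions and rose by 1.53 ± 0.33 (adjusted p = 0.036).

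Sh3pxd2a, which encodes a scaffold protein of podosomes, had 307 tags in WENRC and 89 in RANKL. In GRO-seq it stood at 11.79 and 11.84 in RANKL against 6.55 and 7.87 in WENRC, a rise of 4.60 ± 0.40 (adjusted p = 0.0032). Smad6, an inhibitor of BMP signalling, had 255.7 tags against 52 in 1 region (chr9:63865857-63869690) that reached over its start. The GRO-seq values were 10.62 and 10.65 against 8.10 and 7.72, a rise of 2.72 ± 0.19 (adjusted p = 0.0018). Rhbdl3, a rhomboid family gene, had 217.8 tags against 72 and rose by 2.53 ± 0.21 (adjusted p = 0.0027), while a short RANKL-higher region (20 tags against 5.4) lay just upstream of its start. Zbtb7c, a zinc-finger gene on chromosome 18, had 261.1 tags against 48 and rose by 3.64 ± 0.29 (adjusted p = 0.0026). For each of these 4 genes the 2 RANKL libraries lay above both WENRC libraries without overlap.

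The 3 genes of the group that did not pass the test behaved unlike each other. Mycn had 254.8 tags in WENRC and 57 in RANKL, and its GRO-seq values were 5.34 and 5.48 in RANKL against 4.12 and 4.26 in WENRC. The libraries of the 2 cultures did not overlap, but the change of 1.21 ± 0.36 had an adjusted p of 0.082. The ENRI libraries of Mycn, which also enter the SE, stood at 5.14 and 4.07. Sphk1, a sphingosine kinase gene, had 208.9 tags against 54 and a GRO-seq change of 0.28 ± 0.25, and Gde1 had 217 against 72 and a change of 0.68 ± 0.33. At Gde1 the RANKL libraries (8.05 and 8.24) stood next to the higher of the WENRC libraries (7.85 and 7.07).

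**Figure D1:**
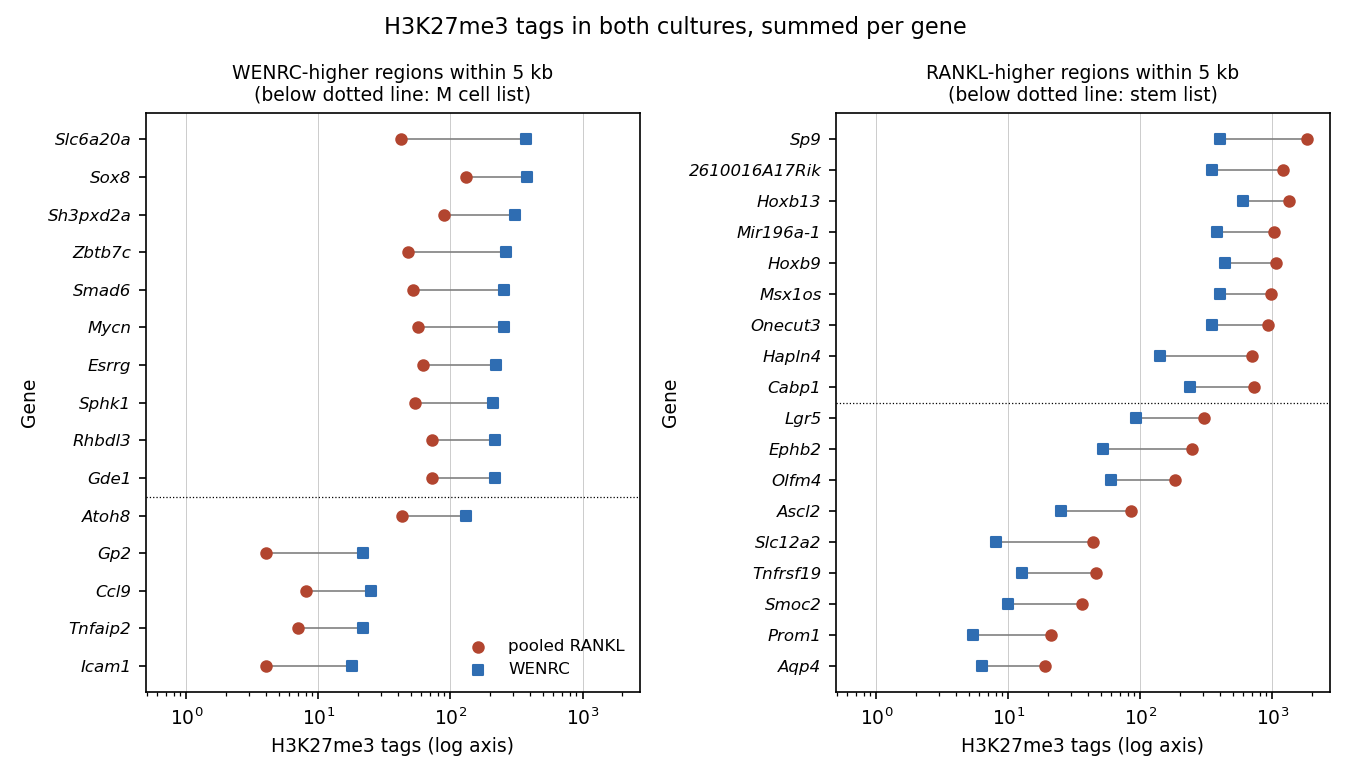
H3K27me3 tags summed over the regions within 5 kb of a start site, on a log axis, in pooled RANKL (circles) and WENRC (squares, scaled by 0.9), with a line joining the cultures for each gene. Genes above the dotted lines are the 10 (left) and 9 (right) with the largest difference and those below are the other listed M cell (left) or stem (right) genes with such a region; WENRC-higher differences at Gp2, Ccl9, Tnfaip2 and Icam1 rest on 18 to 25.2 WENRC tags.

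Regions of H3K27me3 higher in RANKL lay within 5 kb of a start of 4188 of 23354 autosomal genes (17.9%). The most tags of either table lay at Sp9, where 1 region of 19278 bp (chr2:73100693-73119971), also the longest of either table, held 1837 tags in RANKL and 398.8 in WENRC. Sp9 GRO-seq values were 4.30 and 4.29 in RANKL against 6.59 and 5.93 in WENRC and 5.88 and 6.14 in ENRI. It fell by 1.97 on the log2 scale in RANKL (SE 0.27, adjusted p = 0.010), and the RANKL libraries lay below all 4 others. The related gene Sp5, a direct Wnt target, had 166 tags in RANKL and 39.6 in WENRC in a region over its start and fell by 1.42 (SE 0.21, adjusted p = 0.013). Together with Sp9 it made the Klf and Sp genes the class with the highest ratio of summed tags, 4.18, although 5 of 25 of its genes had a RANKL-higher region, a share (20%) close to that of all genes.

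Of the 9 genes with the largest RANKL-higher difference, 6 were tested in GRO-seq and 2 fell, Sp9 and the Hox gene Hoxb9, beside 3.61% of all autosomal genes tested that fell. The others tested were Onecut3 (923 tags against 351.1, GRO-seq change -0.48 ± 0.45), Hapln4 (698 against 140.4, -0.50 ± 0.26), Cabp1 (725 against 237.6, -0.61 ± 0.25) and the antisense transcript Msx1os (980 against 404.2, 0.62 ± 0.16). Hoxb13, 2610016A17Rik and Mir196a-1 were below the level needed for a test in all cultures.

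The Hoxb cluster formed the longest RANKL-higher domain when regions of the table at most 5 kb apart were joined. It ran over 122690 bp (chr11:96091043-96213733), joined 28 regions and held 7312 tags in RANKL and 3072 in WENRC, a ratio of 2.38. A separate region of 15419 bp lay at Hoxb13 (1335 tags against 594.2), next to that domain. Hox genes encode homeodomain factors that set position along the body axis, and all but Hoxb1 of the 10 Hoxb genes had a RANKL-higher region within 5 kb. Of the 7 Hoxb genes tested in GRO-seq, 5 fell (Hoxb9, Hoxb8, Hoxb6, Hoxb5 and Hoxb3), beside 3.61% of all genes tested. The median change of the 7 was -1.24.

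Hoxb3 was the most transcribed gene of the cluster, at 8.06 and 7.69 in WENRC, 7.80 and 6.98 in ENRI and 5.29 and 5.11 in RANKL. Its fall was also the largest in the cluster (log2 change -2.67 ± 0.31, adjusted p = 0.0070). Hoxb9 stood at 4.67 and 4.52 in RANKL against 6.27 and 6.20 in WENRC (change -1.64 ± 0.19, adjusted p = 0.0072). Hoxb7 and Hoxb4 had changes of -0.77 ± 0.31 and -0.84 ± 0.23 that did not pass the test, with RANKL below WENRC in all libraries. Since the counting of strands is not given in the sources used here, reads of overlapping and antisense transcripts of this cluster cannot be told apart.

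The other Hox clusters were marked less evenly. RANKL-higher regions lay nearest to 6 of 11 Hoxa genes, 1 of 9 Hoxc genes and 4 of 9 Hoxd genes. A gene counts here where it is the nearest start to a region's centre, and when any region overlapping 5 kb either side of a start was counted, 26 of 39 Hox genes (66.7%) had one instead of 20 (51.3%). WENRC-higher regions lay at 3 Hox genes, led by Hoxd10 (129.6 tags in WENRC against 60 in RANKL). Over all clusters 6 of 13 tested genes fell, 5 of them in the Hoxb cluster, beside 3.61% of all genes tested. None rose by limma, at an unadjusted p under 0.05 either. Among homeobox genes outside the clusters, 95 of 155 (61.3%) had a RANKL-higher region, among them Onecut3 and Barhl1, beside 17.9% of all autosomal genes. Of the 71 tested, with or without a region, 4 fell and 5 rose, beside 3.61% and 8.6% of all genes tested.

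Stem cell markers showed RANKL-higher H3K27me3 within 5 kb of a start at 9 of 16 genes (56.3%), beside 17.9% of all autosomal genes. In GRO-seq 1 of the 16 fell and 2 rose, beside 3.61% and 8.6% of all genes tested. Lgr5 had a region of 4292 bp over its start (chr10:115022107-115026399) with 303 tags in RANKL and 92.7 in WENRC. In GRO-seq Lgr5 stood at 8.75 and 8.84 in RANKL against 11.64 and 11.99 in WENRC and 8.89 and 8.51 in ENRI. It was the stem list's single gene to fall at the adjusted threshold, with a log2 change of -3.02 ± 0.19 (adjusted p = 0.0017). Both RANKL libraries lay between the 2 enterocyte libraries. At an unadjusted p under 0.05, 4 of the 16 stem genes were lower and 3 higher.

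The other 8 stem genes with a RANKL-higher region did not pass the test as lower. Ephb2 had 248 tags in RANKL against 52.2 and GRO-seq values of 11.82 and 11.90 in RANKL against 12.68 and 12.56 in WENRC (change -0.76 ± 0.24, adjusted p = 0.10). Olfm4 had 182 tags against 59.4 over 3 regions, yet its GRO-seq values were 10.90 and 11.05 in RANKL and 8.83 and 9.12 in WENRC (change 2.0 ± 0.67, adjusted p = 0.11). The ENRI libraries of Olfm4, which also enter the SE, stood at 5.14 and 7.41. Tnfrsf19, a TNF receptor family gene, had 46 tags against 12.6 and rose, from 8.93 and 9.48 in WENRC to 10.90 and 10.89 in RANKL (1.69 ± 0.25, adjusted p = 0.013). Ascl2, the Wnt-dependent stem cell factor, carried a RANKL-higher region inside the gene (85 tags against 25.2) and a WENRC-higher region upstream (77.4 against 37), with a GRO-seq change of -0.21 ± 0.20. Slc12a2 (44 tags against 8.1), Smoc2 (36 against 9.9), Prom1 (21 against 5.4) and Aqp4 (19 against 6.3) had small regions and GRO-seq changes of -0.34, -1.07, -0.55 and 1.09 that did not pass the test. The summed level of the stem list was 15.14 and 15.19 in RANKL and 15.44 and 15.47 in WENRC.

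Feedback regulators and targets of the Wnt pathway had RANKL-higher regions within 5 kb of a start at 13 of 18 genes (72.2%), beside 17.9% of all genes. They included the inhibitors Dkk1, Dkk2, Dkk3, Wif1, Notum, Nkd1, Apcdd1, Sfrp1 and Sfrp2 and the nuclear factors Lef1 and Tcf7. Of 14 tested in GRO-seq, Lgr5 and Sp5 fell, beside 3.61% of all genes tested. None rose by limma, at an unadjusted p under 0.05 either. Lef1 had 337 RANKL tags over 3 regions and a change of -0.44 ± 0.27, and Nkd1 had 296 over 4 regions and a change of -0.26 ± 0.25. Axin2, Rnf43 and Znrf3, which are also targets and brakes of Wnt signalling, had no region within 5 kb, and their GRO-seq changes lay between -0.06 and 0.25. Among Wnt ligand genes, 15 of 19 (78.9%) had a RANKL-higher region, the highest share of the 38 gene classes counted. Of the 13 tested, with or without a region, 3 rose, beside 8.6% of all. With regions of at least 4-fold alone, the share of Wnt ligand genes was 5.26%, beside 672 of 23354 autosomal genes at that fold.

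**Figure D2:**
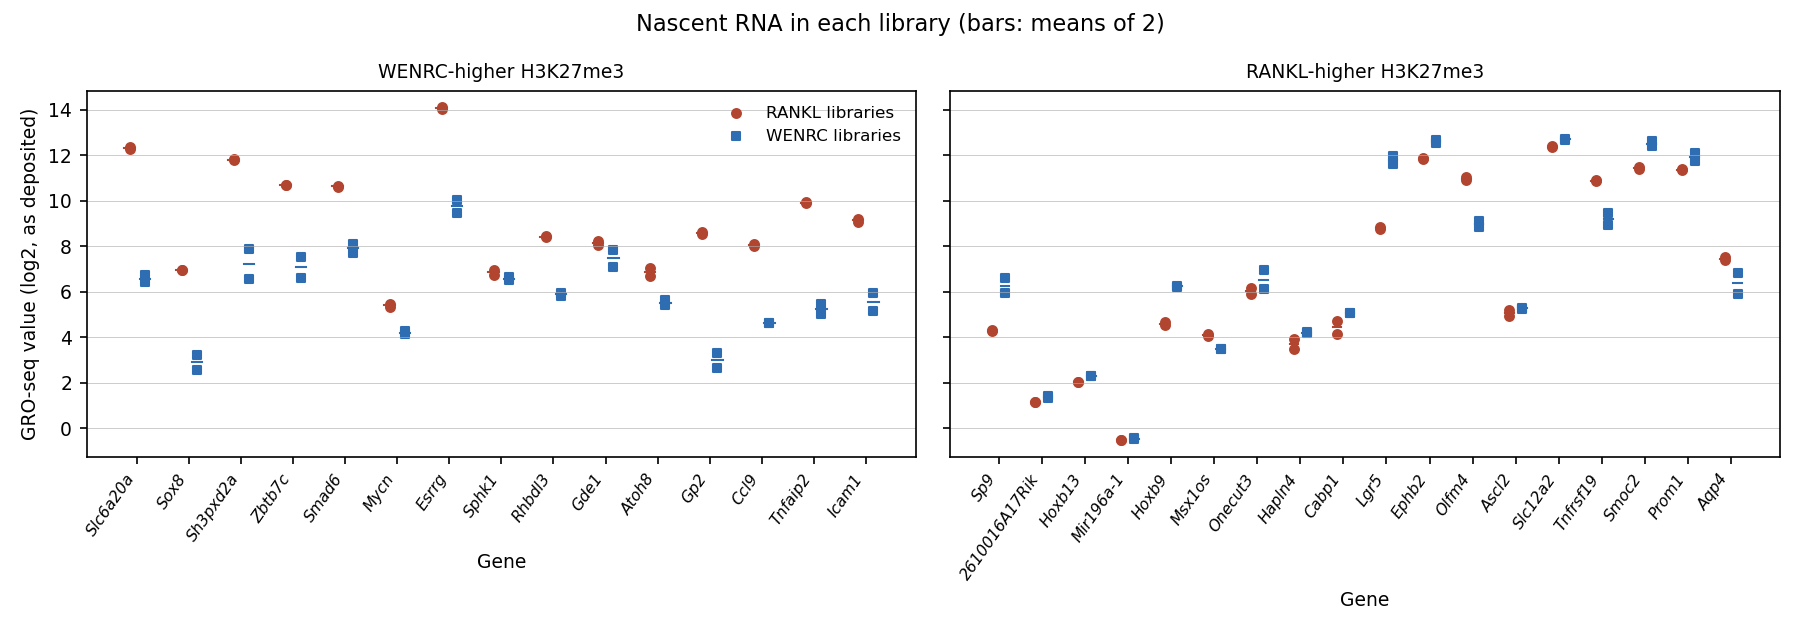
GRO-seq values (log2, as deposited) of each RANKL library (circles) and WENRC library (squares), with bars at the means of 2, for the genes with WENRC-higher regions (left) and RANKL-higher regions (right) that are plotted by tags. On the left the RANKL libraries lie above the WENRC libraries at every gene, by little at Sphk1 and Gde1; on the right Sp9, Hoxb9 and Lgr5 are lower in RANKL, and Olfm4 and Tnfrsf19 are higher.

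Joined to all tested genes, WENRC-higher regions went with higher transcription in RANKL. Of 776 tested genes with such a region within 5 kb, 158 rose (20.4%, 95% Wilson interval 17.7% to 23.3%) beside 8.6% of all 16064 autosomal genes tested, and 13 fell (1.68%) beside 3.61%. The intervals cover counting of genes only, and genes are not independent replicates. The median log2 change was 0.20, beside -0.01 for all autosomal genes. Without RANKL library 1 or library 2, limma called none of the 776, and 22.8% and 23.2% of them were higher at an unadjusted p under 0.05, beside 10.7% and 9.56% of all genes. Without WENRC library 1 or 2, 48 and 44 of them passed, of 231 and 189 genes in all, and their median change was 0.08 and 0.35.

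The share that rose was 18.3% for genes with 1 WENRC-higher region (645 genes), 28.6% with 2 (105 genes) and 38.5% with at least 3 (26 genes). The intervals of the first and the second of these shares overlap, as do those of the second and the third. It was 29.9% where the nearest region was centred within 1 kb of the start, where 52 of 174 rose, and 17.6% at 1 to 5 kb. Of the 18 genes with a summed difference of at least 100 tags, 14 rose (77.8%), against 15.4% of genes with a difference under 20 tags. Genes linked to WENRC-higher regions only at more than 5 kb stood at 10% (2025 genes), close to the share of all genes. These groups overlap in their genes, and their differences were described and not tested.

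For the RANKL-higher table the shares were nearer to those of all genes. Of 2688 tested genes with such a region within 5 kb, 179 fell (6.66%, interval 5.78% to 7.66%) beside 3.61% of all, and 143 rose (5.32%) beside 8.6%. The median log2 change was -0.10. It was -0.21 without WENRC library 1, and without WENRC library 2 it was -0.02, the same as for all genes. Without RANKL library 1 or 2, none passed, and 9.45% and 8.78% were lower at an unadjusted p under 0.05, beside 5.67% and 5.48% of all genes; without WENRC library 1 or 2, 10 and 11 passed. With the replicate number as a block in the fit, the share that fell was 4.69% beside 2.45% of all genes.

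The share that fell was 7.30% with 1 region, 6.03% with 2 and 4.89% with at least 3, whose intervals overlap. It was higher at genes with a region of at least 4-fold difference (63 of 491 genes, 12.8%) than below (5.28%), and at genes with a summed difference of at least 100 tags (51 of 458, 11.1%) than under 20 tags (4.95%). Genes with RANKL-higher regions had a median WENRC GRO-seq level of 6.12, below the 7.77 of all autosomal genes tested, and 64.2% of them reached the level for a test, beside 68.8% of all. At the median they were thus less transcribed than the tested genes as a whole, also in RANKL (5.98 against 7.74). The same held for genes with WENRC-higher regions, with medians of 6.15 in WENRC and 6.76 in RANKL and 62.7% tested.

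The directions met at 358 genes, which had regions of both kinds within 5 kb, 8.55% of the genes with a RANKL-higher and 28.9% of those with a WENRC-higher region. Over all autosomal genes, WENRC-higher regions lay at 5.3% (to set beside 8.55%) and RANKL-higher ones at 17.9% (beside 28.9%). Of the 231 shared genes tested, 27 rose (11.7%, interval 8.16% to 16.5%) and 8 fell (3.46%), close to the 8.6% and 3.61% of all tested. The median change of the shared genes was 0.01. With these genes set aside, 131 of 545 genes with WENRC-higher regions rose (24.0%, beside 8.6%) and 5 fell (0.917%, beside 3.61%). Among genes with RANKL-higher regions alone, 171 of 2457 fell (6.96%, beside 3.61%) and 116 rose (4.72%, beside 8.6%).

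**Figure D3:**
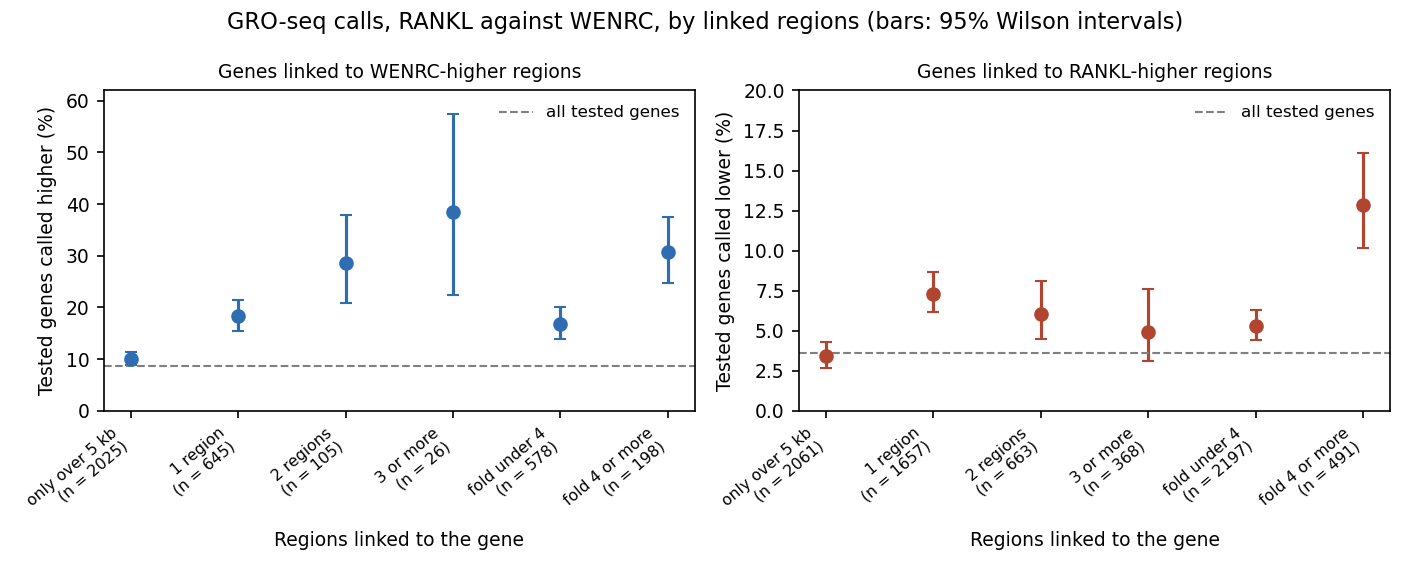
Share of tested genes called higher (left, genes linked to WENRC-higher regions) or lower (right, genes linked to RANKL-higher regions) in RANKL against WENRC GRO-seq, by limma at an adjusted p under 0.05, with 95% Wilson intervals; the dashed lines mark the share over all autosomal genes tested (8.6% and 3.61%). The left share climbs from 18.3% with 1 region to 38.5% with at least 3, and the right share stays between 4.89% and 7.30% by number of regions and reaches 12.8% at folds of at least 4.

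By gene class, RANKL-higher regions within 5 kb of a start lay most often at developmental regulators, signalling ligands and neuronal channel genes. After the Wnt ligands came FGF ligands (14 of 20 genes, 70.0%), Frizzled receptors and Wnt antagonists (18 of 27, 66.7%), calcium and sodium channels (26 of 39, 66.7%) and lineage basic helix-loop-helix factors (29 of 45, 64.4%). Shares of 53.3% to 57.1% were found for Eph receptors and ephrins, collagens and laminins, potassium channels, TGF-beta family genes, neurotransmitter receptors, T-box genes and hedgehog and Notch genes. At the other end stood ribosomal protein genes (0 of 77), vomeronasal receptors (5 of 327, 1.53%), olfactory receptors (44 of 1101, 4.0%) and histone genes (4 of 69, 5.80%). These shares stand beside 17.9% of all autosomal genes. The order of the classes rests on the fold at which regions are counted. With regions of at least 4-fold alone (672 of 23354 genes), Eph receptors and ephrins stood highest at 23.8%, Wnt ligands and FGF ligands were at 5.26% and 5.0%, and lineage basic helix-loop-helix factors, Frizzled receptors and Wnt antagonists and Hox cluster genes were at 0%. A class is described by its count alone, and its members were not tested as a set.

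In GRO-seq each class was counted over all its tested genes, with or without a region. The counts are read beside the 8.6% of all genes that rose and the 3.61% that fell. Of 13 Hox genes tested 6 fell, and of 22 TGF-beta family genes 3 rose and 1 fell. Fgf18, which led the FGF genes, had 340 tags in RANKL against 113.4 and a GRO-seq change of -0.78 ± 0.40. In lineage basic helix-loop-helix factors 1 of 11 tested genes passed, Atoh8, which rose. Within 5 kb, Atoh8 had no RANKL-higher region and 3 WENRC-higher ones. Neurog3, the master regulator of enteroendocrine cells, had 616 tags in RANKL against 254.8 and a GRO-seq change of 0.47 ± 0.28. Of 62 neurotransmitter receptors tested 2 rose, and of 63 potassium channels 6 rose and 1 fell. In a mixed class of further transcription factors, Stat5b, a cytokine signal transducer, had 400 tags against 150.3 and fell by 0.82 on the log2 scale (SE 0.15, adjusted p = 0.023). Among Frizzled genes, Fzd3 had 180 tags against 63 and fell by 1.49 (SE 0.36, adjusted p = 0.049), and among zinc-finger genes Zfp503 had 484 against 219.7 and fell by 1.75 (SE 0.39, adjusted p = 0.040).

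WENRC-higher regions were spread more thinly over the classes, with 5.3% of all genes as the background. Shares were highest in Wnt ligands (4 of 19, 21.1%), FGF ligands (4 of 20, 20%), T-box genes (3 of 15, 20%), potassium channels (17 of 91, 18.7%) and interleukins and their receptors (13 of 78, 16.7%). None was found within 5 kb of a start at the 21 Eph and ephrin genes, which had RANKL-higher regions at 12. Of these genes, 3 of the 4 Wnt ligands, 2 of the 4 FGF ligands, 2 of the 3 T-box genes, 8 of the 17 potassium channels and 4 of the 13 interleukin genes also had a RANKL-higher region.

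Several of the leading WENRC-higher class members rose in RANKL. Bmp2, a bone morphogenetic protein gene, had 64.8 tags in WENRC against 16 in RANKL. Bmp2 GRO-seq values were 9.69 and 9.74 in RANKL against 6.90 and 7.04 in WENRC (change 2.74 ± 0.23, adjusted p = 0.0032), and those of ENRI lay between (8.82 and 8.16). Bmp6 had 74.7 tags against 35 and rose by 1.57 ± 0.14 (adjusted p = 0.0035). Celsr1, a cadherin of planar cell polarity, had 82.8 against 22 and rose by 2.68 ± 0.13 (adjusted p = 0.0012). Sost, a secreted Wnt antagonist, had 239.4 against 109 and rose by 2.08 ± 0.17 from 2.94 and 2.96 in WENRC (adjusted p = 0.0025). The scavenging chemokine receptor Ackr3 (61.2 against 26, rise of 2.75 ± 0.23), the neurotrophin receptor Ngfr (139.5 against 67, 1.77 ± 0.21), the cytokine receptor subunit Il6st (38.7 against 11, 1.25 ± 0.22) and the ligand gene Wnt3 (33.3 against 15, 1.38 ± 0.31) also passed the test. The T-box gene Tbx10, by contrast, had 78.3 tags against 25 and a change of 0.02 ± 0.19.

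**Figure D4:**
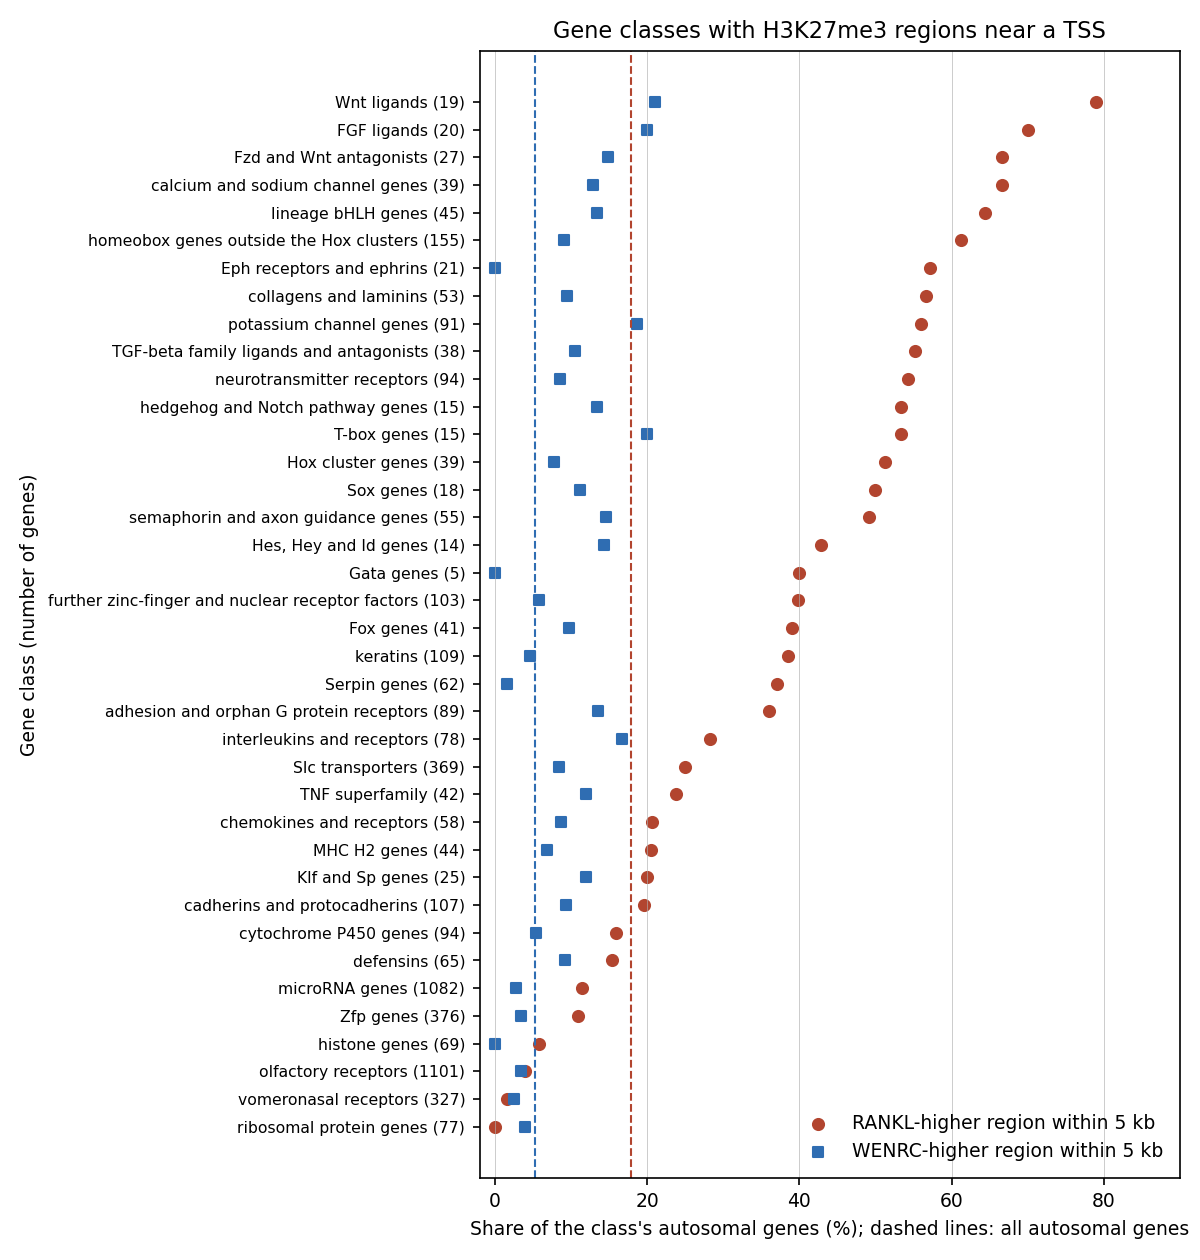
Share of the autosomal genes of each of 38 gene classes with a RANKL-higher region (circles) or a WENRC-higher region (squares) within 5 kb of a start site, with the number of genes in brackets. Dashed lines mark all autosomal genes (17.9% and 5.3%); Wnt ligands reach 78.9% and ribosomal protein genes stand at 0% for RANKL-higher regions.

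Cell type lists other than M cell and stem were read for cells an organoid could hold, with regions counted within 5 kb of a start. RANKL-higher regions lay at 10 of 19 enteroendocrine genes (52.6%), 5 of 10 goblet genes, 3 of 12 Paneth genes, 4 of 23 enterocyte genes (17.4%) and 2 of 12 tuft genes (16.7%), beside 17.9% of all genes. WENRC-higher regions lay at 3, 1, 0, 1 and 0 of them, beside 5.3%. In GRO-seq 10 of 23 enterocyte, 3 of 9 goblet, 5 of 10 Paneth, 2 of 13 enteroendocrine and 2 of 10 tuft genes tested rose in RANKL, beside 8.6% of all genes. None of these genes fell by limma, and at an unadjusted p under 0.05 1 enterocyte, 1 goblet and 1 tuft gene were lower. The summed enterocyte level was 15.73 and 15.84 in RANKL against 14.82 and 14.20 in WENRC, the goblet level 13.58 and 13.55 against 11.92 and 11.09, and the Paneth level 11.95 and 11.86 against 9.70 and 10.16. The part of these markers in the differences of the mark was not tested.

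Among goblet and enterocyte genes, the mark and transcription moved the same way at Muc2 and Slc15a1 and opposite ways at Apoa4. Muc2, the main gel-forming mucin of goblet cells, had 311 tags in RANKL against 126.9 over 3 regions. GRO-seq read 10.58 and 10.37 in RANKL against 7.44 and 7.00 in WENRC and 10.86 and 11.00 in ENRI, a rise of 3.25 ± 0.19 (adjusted p = 0.0014). The peptide transporter gene Slc15a1 had a RANKL-higher region within 5 kb (39 tags against 18), and the apolipoprotein gene Apoa4 a WENRC-higher one (17.1 against 3). Both rose, by 1.37 ± 0.26 (adjusted p = 0.025) and 3.97 ± 0.43 (adjusted p = 0.0061). The other tested genes of these lists with a RANKL-higher region did not pass the test. Their changes were 0.22 (Dgat1), 0.13 (Dgat2), -0.81 (Rbp2), 0.85 (Spdef), 0.40 (Agr2) and -0.75 (Creb3l1).

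Most fibroblast genes were marked and at low GRO-seq levels. Within 5 kb of a start, 7 of 9 fibroblast genes had RANKL-higher regions (17.9% of all genes had one). Among them were Vim (388 tags against 184.5) and Col1a1 (373 against 174.6). None of the 9 had a WENRC-higher region within that distance. All but Pdgfrb stood between -1.98 and 3.17 (log2) in every GRO-seq library, below the level for a test. Pdgfrb rose in RANKL by 2.45 ± 0.33 (adjusted p = 0.010), from 7.12 and 6.44 in WENRC to 9.21 and 9.26. RANKL-higher regions lay at 3 of 9 leukocyte genes and 1 of 6 endothelial genes, and WENRC-higher ones at 1 and 0. Of 9 leukocyte genes 6 were tested and of 6 endothelial genes 4, and none passed by limma. At an unadjusted p under 0.05, 1 leukocyte gene was lower and 2 endothelial genes were higher. Ptprc, the pan-leukocyte gene, stood at 3.54 and 3.31 in RANKL against 3.07 and 3.78 in WENRC.

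Of 17 NF-kB pathway genes 13 rose in RANKL, beside 8.6% of all genes tested. Within 5 kb of a start, WENRC-higher regions lay at Traf1 (18.9 tags against 5) and Nfkbie (21.6 against 7), 11.8% of the list beside 5.3% of all genes. Traf6 had a RANKL-higher region within that distance. Of 10 PRC2 genes Jarid2 (rise of 1.92 ± 0.23, adjusted p = 0.0073) and Ezh1 (0.82 ± 0.15, adjusted p = 0.024) rose. The catalytic subunit gene Ezh2 had a GRO-seq change of 0.06 ± 0.21, and Suz12 and Eed had changes of 0.12 ± 0.19 and 0.19 ± 0.12. Phf19, a PRC2 accessory factor gene, was the one gene of the list with a region within 5 kb of a start (154 RANKL tags). Farther away, Aebp2 of the same list was linked to 25 RANKL-higher regions (795 tags against 247.5) and 3 WENRC-higher ones. Of 25 regulators of the intestinal epithelium none had a RANKL-higher region within 5 kb of a start. WENRC-higher regions lay within that distance at 4 (16%, beside 5.3% of all genes). These were Id2 (99 tags against 20), Maf (58.5 against 22), Klf4 (22.5 against 8) and Foxa2 (16.2 against 5), of which Maf rose (2.21 ± 0.27, adjusted p = 0.0079). At any distance, 10 of the 25 were linked to a RANKL-higher region and 12 to a WENRC-higher one. Over all 23354 autosomal genes, 7441 and 5371 were so linked. Klf4, Maf and Foxa2 were linked to 35, 11 and 10 RANKL-higher regions, all more than 5 kb away. The same genes were linked to 21, 18 and 6 WENRC-higher regions at any distance.

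In size and place the tables differed. RANKL-higher regions covered 23.5 Mb and WENRC-higher regions 7.03 Mb. The shortest length the files give, 500 bp, was that of 52.5% of regions in the RANKL-higher table and 77.4% in the WENRC-higher one, and 1472 against 83 regions reached 2 kb. The median region held 28 tags in RANKL against 9.9 in WENRC in the first table and 20.7 in WENRC against 6 in RANKL in the second. The authors' median fold was 2.89 and 3.34, the lowest was 2 in both, and 13.9% and 27.9% of regions reached 4. Fewer tags thus stood behind larger folds in the WENRC-higher table.

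Per kb, the median density in RANKL-higher regions was 46 tags in RANKL and 15.8 in WENRC, and in WENRC-higher regions 39.6 tags in WENRC and 12 in RANKL. Tags spread evenly over the chromosomes would give 12.4 per kb. The other culture was at or under that density in 23.4% of regions in the RANKL-higher table and 64.8% in the WENRC-higher table, and at least 2 times that density in 16.0% and 3.19%. Most WENRC-higher regions were thus at or under an even spread of tags in RANKL, and RANKL-higher regions were less often so in WENRC. An even spread is not a measured background, and the regions were chosen by these same tags. Length also differed between the tables. Among RANKL-higher regions the median WENRC density went from 14.4 per kb at 500 bp to 23.1 at 5 kb and over. The contrast therefore describes the regions chosen and was not tested.

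RANKL-higher regions lay closer to genes. Their median distance to a start was 19.5 kb, against 37.3 kb in the WENRC-higher table, and 24.2% against 12.2% were centred within 5 kb. Promoter annotation was given to 4.96% and 1.33%, CpG islands to 303 and 14 regions, and LINE repeats to 5.38% and 9.47%. In the RANKL-higher table the share within 5 kb of a start rose with length, from 18.9% at 500 bp to 35.0% at 1 to 2 kb and 45.6% at 5 kb and over (158 regions). In the WENRC-higher table it went from 11.3% at 500 bp to 19.4% at 1 to 2 kb and 29.5% at 2 to 5 kb (78 regions).

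**Figure D5:**
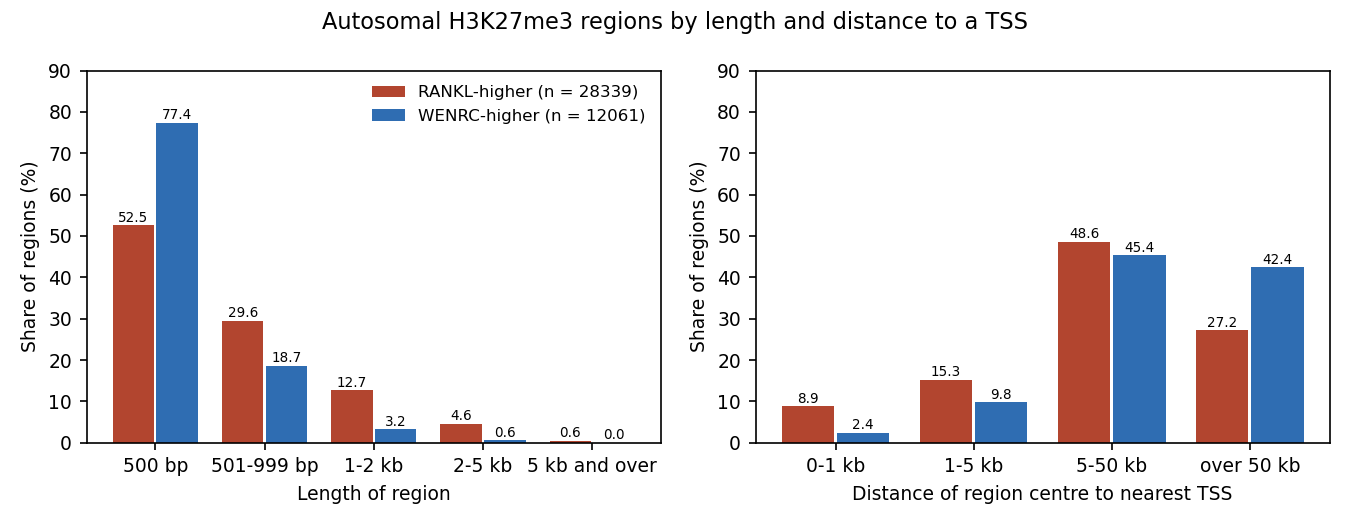
Share of autosomal regions of each table by length (left) and by distance of the region's centre to the nearest start site (right), with 28339 RANKL-higher and 12061 WENRC-higher regions. WENRC-higher regions are more often at 500 bp (77.4% against 52.5%) and more often over 50 kb from a start (42.4% against 27.2%).

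Broad domains were found mainly in the RANKL-higher table. After joining regions at most 5 kb apart, 290 RANKL-higher domains reached 20 kb and held 9.78% of the table's regions, against 7 WENRC-higher domains with 0.464%. After the Hoxb cluster, the next longest lay at the lymphocyte receptor gene Btla (72271 bp, 1788 tags against 738), the forkhead gene Foxo6 (70271 bp, 1679 against 641.7), Cyth4 (64166 bp, 1952 against 713.7) and Asb18 (62350 bp, 1067 against 400.5). Foxo6 was transcribed at 5.54 in both RANKL libraries and at 5.07 and 5.23 in WENRC, while Btla, Cyth4 and Asb18 were below the level for a test.

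The longest WENRC-higher domains were shorter. They lay by Pde6a on chromosome 18 (33025 bp, 829 tags in WENRC against 302), Cdc7 (25513 bp, 304.2 against 107), Depdc1a (25209 bp, 532.8 against 88), Edn2 (22837 bp, 389.7 against 122) and the non-coding gene Gm6559 (21847 bp, 317.7 against 99). None had its regions centred within 5 kb of the start of the gene named. The Depdc1a domain had the highest ratio of these 5 (6.06) and began upstream of the gene, which encodes a DEP domain protein and rose from 7.64 and 7.44 in WENRC to 8.95 and 9.01 in RANKL (1.44 ± 0.29, adjusted p = 0.031). The Edn2 domain and the Foxo6 domain are of opposite direction and stand 41.97 kb apart on chromosome 4. Edn2, an endothelin gene, had GRO-seq values of 6.73 and 6.49 in RANKL against 5.88 and 5.39 in WENRC, which did not pass the test (0.97 ± 0.35).

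Regions with the largest folds singled out a pair of cytokine receptor genes. Among regions with at least 10 tags in the lower culture, the 2 highest RANKL-higher folds lay side by side on chromosome 4. Within Il22ra1, the receptor for interleukin 22, intron 4 of 6 held a region with 239 tags in RANKL and 21.6 in WENRC (chr4:135292435-135296418, fold 11.06). At Ifnlr1, the receptor for type III interferons, a region over intron 1 of 6 and the start held 447 against 47.7 (chr4:135239604-135246380, fold 9.37).

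Both receptor genes fell. Il22ra1 had GRO-seq values of 7.26 and 7.12 in RANKL against 9.53 and 9.06 in WENRC and 10.73 and 11.47 in ENRI, a change of -2.11 ± 0.28 (adjusted p = 0.0097). Ifnlr1 stood at 6.06 and 5.86 in RANKL against 8.50 and 8.63 in WENRC and 9.12 and 9.41 in ENRI, a change of -2.61 ± 0.18 (adjusted p = 0.0018). At each gene the RANKL libraries were the lowest of the 6.

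Next to Pigr, the receptor that carries IgA across the epithelium, a region upstream of the gene, at -5379 bp, held 138 tags in RANKL against 15.3, with a GRO-seq change of 0.36 ± 0.33. Pmepa1, an inhibitor of TGF-beta signalling, had 179 against 20.7 (change -1.16 ± 0.89), and Hrc 413 against 54 (-1.03 ± 0.26, adjusted p = 0.055). Pmepa1 stood at 8.76 and 8.65 in RANKL and 9.91 and 9.83 in WENRC. Its ENRI libraries, which also enter the SE, were far apart (11.10 and 8.06). In the WENRC-higher table the 5 largest folds lay at Slc6a20a, at 2 regions of the Depdc1a domain, at Adm, the adrenomedullin gene (76.5 against 12, change -0.10 ± 0.25), and at a region 62740 bp from Tle3, a Groucho family corepressor gene (108.9 against 18). Tle3 rose from 10.17 and 10.04 to 11.37 and 11.51 (1.33 ± 0.17, adjusted p = 0.0081), at a distance at which nearest-gene assignment is loose.

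By chromosome, RANKL-higher regions made up 57.8% (chromosome 13) to 79.3% (chromosome 7) of the regions of both tables, so that they were in the majority on each of the 19 autosomes.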

How the data were processed

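H3K27me3 ChIP-seq was deposited as 2 tables of differential peaks, each called in one culture with the other as control, with tag counts, a fold ratio, p-values and a peak score that are the authors' own, per the file headers (HOMER, build mm9). The tag counts, a coverage signal per region deposited by the authors, are scaled to the RANKL depth. GRO-seq was deposited as log2 values per library that the authors normalized with DESeq2, per the file headers and the submitters' processing notes, which also name Bowtie2 2.3.4.1. How strands were counted and the GRO-seq depth are not given in the sources used here. The authors' deposited adjusted p-value of GRO-seq entered an alternative.

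Regions were linked to the file's nearest gene where the centre lay within 5 kb of the start. GRO-seq genes with a value of at least 10 before log2 in at least 2 libraries were tested in limma 3.58.1 (R 4.3.3, 3 group means, 6 libraries, trended variance), with Benjamini-Hochberg adjustment over all genes tested and a threshold of 0.05. The fit was tested on simulated data. ENRI entered the fit and its levels are given; it has no H3K27me3 table here. RANKL libraries are replicates by label, and nothing says they came from separate cultures, so p-values measure the spread between these libraries, which may be technical. Intervals are Wilson intervals and cover counting error only. Tables were made in Python 3.11.15 (pandas 2.3.3, numpy 2.4.6, scipy 1.17.1). Promoters were matched by symbol to RefSeq entries of genes with 1 entry.

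The text names, per table, the 10 genes with the largest summed tag difference within 5 kb, genes of 14 fixed lists with such a region, up to 3 leading genes for each of 38 classes, the 5 largest folds with at least 10 tags in the lower culture and the 5 longest domains. 1 gene that this rule names is not reported here. Members and lists were chosen with earlier results of these data known. Alternatives covered fold, tags, distance, gene link, filter, scaling, replicate block and each library left out. In WENRC, 12 blank rows were dropped.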

Additional observations from a re-analysis of the deposited data

How the results depend on the processing

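With regions of at least 4-fold, 3934 RANKL-higher and 3362 WENRC-higher regions remained, and 6936 WENRC-higher regions held at least 20 tags. Genes with a RANKL-higher region numbered 672 at 4-fold, 2328 within 1 kb and 7441 at any distance. Genes with a WENRC-higher region numbered 319, 285 and 5371, and 1999 within 10 kb. The share of genes with WENRC-higher regions that rose in GRO-seq (20.4%) was 30.8% at 4-fold, 29.9% within 1 kb, 17.4% within 10 kb, 11.3% at any distance and 24.0% without genes of both kinds. It was 30.7% by the authors' adjusted p (16.9% of all genes), 14.5% with no filter on low values (6.40%), 31.6% with the RANKL and WENRC libraries alone (18.3%) and 17.7% with upper quartiles made equal (7.56%), where the median over all tested genes was -0.12 instead of -0.007. The share of genes with RANKL-higher regions that fell (6.66%) was 12.8% at 4-fold and 5.07% at any distance. It was 16.4% by the authors' adjusted p (11.0%), 4.19% with no filter (2.51%), 18.6% with the RANKL and WENRC libraries alone (13.2%) and 8.93% with upper quartiles made equal (6.56%). With 1 library left out, these shares ran from 0% to 6.19% and from 0% to 0.409%. With 1 library left out, the median change ran from 0.08 to 0.35 in the first group and from -0.21 to -0.02 in the second. Without WENRC library 2 the median was -0.02 in the second group and over all genes, and 51.3% of each were lower. Of 76 shares of gene classes, 67 lay outside their main interval at 4-fold, 53 within 1 kb and 14 within 10 kb.

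With the replicate number as a block, 18.6% of the first group rose (144 genes) and 4.69% of the second fell (126), beside 6.39% and 2.45% of all genes. Deviations from the culture means had r = -0.323 between RANKL and WENRC libraries of the same number and r = 0.414 between those of ENRI and WENRC. Only ENRI and WENRC share a mouse number. With 2 libraries per culture the sign of r turns with the numbering, and the RANKL numbers are not stated to be mouse numbers. These values therefore cannot decide whether RANKL and WENRC libraries are paired. A crossed pairing, added after the data were seen, gave 156 and 158 calls. The depth of GRO-seq is unknown, and most regions rest on few tags from 1 or 2 pooled libraries, so that short regions such as those at Gp2, Icam1, Ccl9 and Tnfaip2 have no check on their direction.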

Other observations

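In GRO-seq 8.6% of all autosomal genes tested rose and 3.61% fell. Within 5 kb of a start, the distance counted here, 17.9% and 5.3% of all genes had RANKL-higher and WENRC-higher regions. Of 66 histone genes tested 34 fell in RANKL and 1 rose, with a median log2 change of -0.89, while RANKL-higher regions lay at 4 of 69 and WENRC-higher regions at none. Of 19 defensin genes tested 16 rose, with a median change of 1.29, and RANKL-higher and WENRC-higher regions lay at 10 and 6 of 65. Histone and defensin genes are families of near-identical copies, and the counting could split reads between them. Cytochrome P450 genes had 14 of 64 tested higher and 3 lower, and TNF superfamily genes 7 of 31 higher.

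Within the TNF superfamily, Tnfsf15 had 30.6 tags in WENRC against 10 in RANKL. GRO-seq read 7.10 and 7.28 in RANKL against 5.77 and 5.44 in WENRC (change 1.59 ± 0.20, adjusted p = 0.0086 by limma). The P450 gene Cyp2d34 had 21.6 tags against 5 and rose by 2.85 ± 0.24 (adjusted p = 0.0029 by limma). The cell adhesion gene Cadm1, which lies outside the leading RANKL-higher genes and was chosen after its values were seen, stood at 8.14 and 8.16 in RANKL against 10.29 and 9.72 in WENRC and 11.56 and 10.46 in ENRI (change -1.86 ± 0.38, adjusted p = 0.031 by limma).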
